A study of Mus musculus with 6 samples.

Results

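Neutrophil granule and receptor genes were followed in bladder tumours of mice: Camp, Ngp, Ltf, Lcn2, Retnlg, Csf3r, Ly6g, Fpr1, Fpr2 and Clec4d. The 10 genes were taken by symbol from a table of 22063 genes, and each symbol had 1 row. RNA was sequenced from 6 tumours of female mice in an immunocompetent model of bladder cancer that arises spontaneously. Every mouse had received an anti-PD-1 antibody once tumours had formed, and no untreated tumour was analysed. PD-1 restrains T cells, and the antibody is meant to release them from it. The labels call 3 tumours non-responsive (NR1, NR2 and NR3 here) and 3 responsive (R1, R2 and R3). The sources used here do not give the mouse strain, the age or, beyond calling the model spontaneous, how the tumours arose. The labels name separate samples but not separate animals, and p-values therefore cover only the variation among samples, part of which may be technical.

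Neutrophils are short-lived leukocytes that carry ready-made granules. The granule proteins are transcribed in the bone marrow while the cell matures, and primary granules (Mpo, Elane) are filled before secondary granules (Camp, Ngp, Ltf, Lcn2). Transcripts of receptors such as Csf3r and the formyl peptide receptors persist in mature cells that have entered a tissue. Granule and receptor transcripts can therefore report different stages of the same lineage. Ltf and Lcn2 are also made by epithelial cells, and Fpr1, Fpr2 and Clec4d also by monocytes.

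The region before the transcription start was read for every member, because granule genes are known targets of the C/EBP family of factors and many myeloid genes of PU.1. The upstream 250 bases of the RefSeq start (GRCm38.p6) were available for all 10 genes, with 2 starts for Ly6g. In the granule genes below, capitals mark the letters TTGCNNAA or their reverse complement TTNNGCAA, a C/EBP-type motif. Clec4d is shown as a receptor gene for contrast, with capitals marking GAGGAA or TTCCTC, the letters of a PU.1-type motif on either strand. Both strands were searched.
Camp, chr9:109849457-109849706, minus strand: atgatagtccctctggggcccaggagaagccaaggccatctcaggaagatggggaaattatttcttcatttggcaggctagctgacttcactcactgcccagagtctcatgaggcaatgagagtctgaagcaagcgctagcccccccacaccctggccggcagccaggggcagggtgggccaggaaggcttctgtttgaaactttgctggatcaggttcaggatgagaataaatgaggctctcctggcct
Ngp, chr9:110419558-110419807, plus strand: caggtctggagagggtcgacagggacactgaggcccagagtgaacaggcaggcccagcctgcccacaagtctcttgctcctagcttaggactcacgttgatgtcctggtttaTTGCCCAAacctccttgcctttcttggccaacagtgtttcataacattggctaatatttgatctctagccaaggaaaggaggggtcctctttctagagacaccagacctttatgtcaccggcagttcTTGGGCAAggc
Ltf, chr9:111019042-111019291, plus strand: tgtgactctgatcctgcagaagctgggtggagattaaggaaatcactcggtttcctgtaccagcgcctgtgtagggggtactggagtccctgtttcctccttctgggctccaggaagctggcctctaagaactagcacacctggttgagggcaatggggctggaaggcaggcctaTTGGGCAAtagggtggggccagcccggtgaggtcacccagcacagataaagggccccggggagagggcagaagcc
Lcn2, chr2:32387740-32387989, minus strand: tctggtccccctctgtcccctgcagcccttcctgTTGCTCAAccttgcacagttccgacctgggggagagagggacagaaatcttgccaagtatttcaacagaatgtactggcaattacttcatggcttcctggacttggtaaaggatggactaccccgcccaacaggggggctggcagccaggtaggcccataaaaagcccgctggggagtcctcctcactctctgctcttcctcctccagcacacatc
Clec4d, chr6:123261857-123262106, plus strand: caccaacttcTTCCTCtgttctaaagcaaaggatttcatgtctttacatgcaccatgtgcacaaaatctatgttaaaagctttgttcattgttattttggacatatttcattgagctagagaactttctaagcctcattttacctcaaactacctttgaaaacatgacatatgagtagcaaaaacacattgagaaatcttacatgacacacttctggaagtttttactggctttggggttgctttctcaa

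The C/EBP-type letters occurred in 5 of the 10 genes, against 9.56% of 32851 windows of the same length over all genes. Ngp had 2 matches, at 138 and 11 bases before its start. Ltf had 1 at 75 bases, Lcn2 1 at 216 bases and Retnlg 1 at 246 bases before the start. Ly6g had 1 match, in the window of the first of its 2 starts only. Camp, Csf3r, Fpr1, Fpr2 and Clec4d had none in this window. The PU.1-type letters occurred in 6 of the 10 genes (Lcn2, Ltf, Ly6g, Csf3r, Clec4d and Fpr2), against 23.3% of all windows. The 2 motifs did not overlap in any member. A match is a description of the letters only.

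On chromosome 9 (mm10), Camp (109847379 to 109849617), Ngp (110419747 to 110423012) and Ltf (111019271 to 111042767) lie within 1195389 bases of each other. Fpr1 (17876471 to 17883940) and Fpr2 (17887824 to 17893952) are neighbours on chromosome 17, transcribed away from each other with 3883 bases between them. Lcn2 lies on chromosome 2 (32384633 to 32388252), Csf3r on chromosome 4 (126024550 to 126044440) and Clec4d on chromosome 6 (123262111 to 123275265). Ly6g lies on chromosome 15 (75155240 to 75159126) and Retnlg on chromosome 16 (48872621 to 48874496). All are protein-coding in GENCODE release M21. Ly6g and the Fpr genes have close paralogs, and the sources used here do not say how shared reads were counted, so their levels are uncertain to that extent.

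Total counts were 15046178 to 23917413 per tumour. Levels are given as CPM, the count scaled by the TMM-normalised library size. A tumour with 0 counts of a gene could hold up to 3, which equals 0.124 to 0.199 CPM and covers counting error only. NR1 was most like R2 over the 14505 genes tested (Pearson r = 0.950 across genes, which are not independent replicates), against 0.906 and 0.921 with NR2 and NR3. Results that rest on 1 tumour are given with and without it. Uroplakin and keratin transcripts of the urothelium, such as Upk1b at 22.7 to 860 CPM, were present in every tumour, as was the leukocyte gene Ptprc at 30.7 to 263 CPM.

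The 10 neutrophil genes had overlapping levels in non-responsive and responsive tumours, and none passed the edgeR quasi-likelihood test. For 0 of the 10 were the groups free of overlap in either direction, against 17.7% of all genes tested. The filter on low counts left 9 members, of which 0 passed at an adjusted p of 0.05 (0% of the 14505 genes tested passed). Camp alone, 1 of 9, had an unadjusted p under 0.05, against 6.79% of all genes tested that were higher in non-responsive tumours at this level. DESeq2, which called 444 genes in all and 1.49% of genes with an adjusted p as higher, called 0 members and gave Camp and Ngp no p. limma on log2(FPKM + 1) called 0 genes. Over all genes edgeR called 0, with 1825 at an unadjusted p under 0.05. All 10 members had a higher mean log2 CPM in non-responsive tumours, as had 49.8% of all genes tested. Their median difference was 0.85, against -0.0038 over all genes tested. All listed pan-leukocyte, monocyte and macrophage, and eosinophil and basophil markers were higher too. Their medians were 0.84 over 5, 0.49 over 12 and 1.45 over 7 genes, in that order. Bulk RNA cannot tell fewer neutrophils from less RNA per neutrophil.

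**Figure D1:**
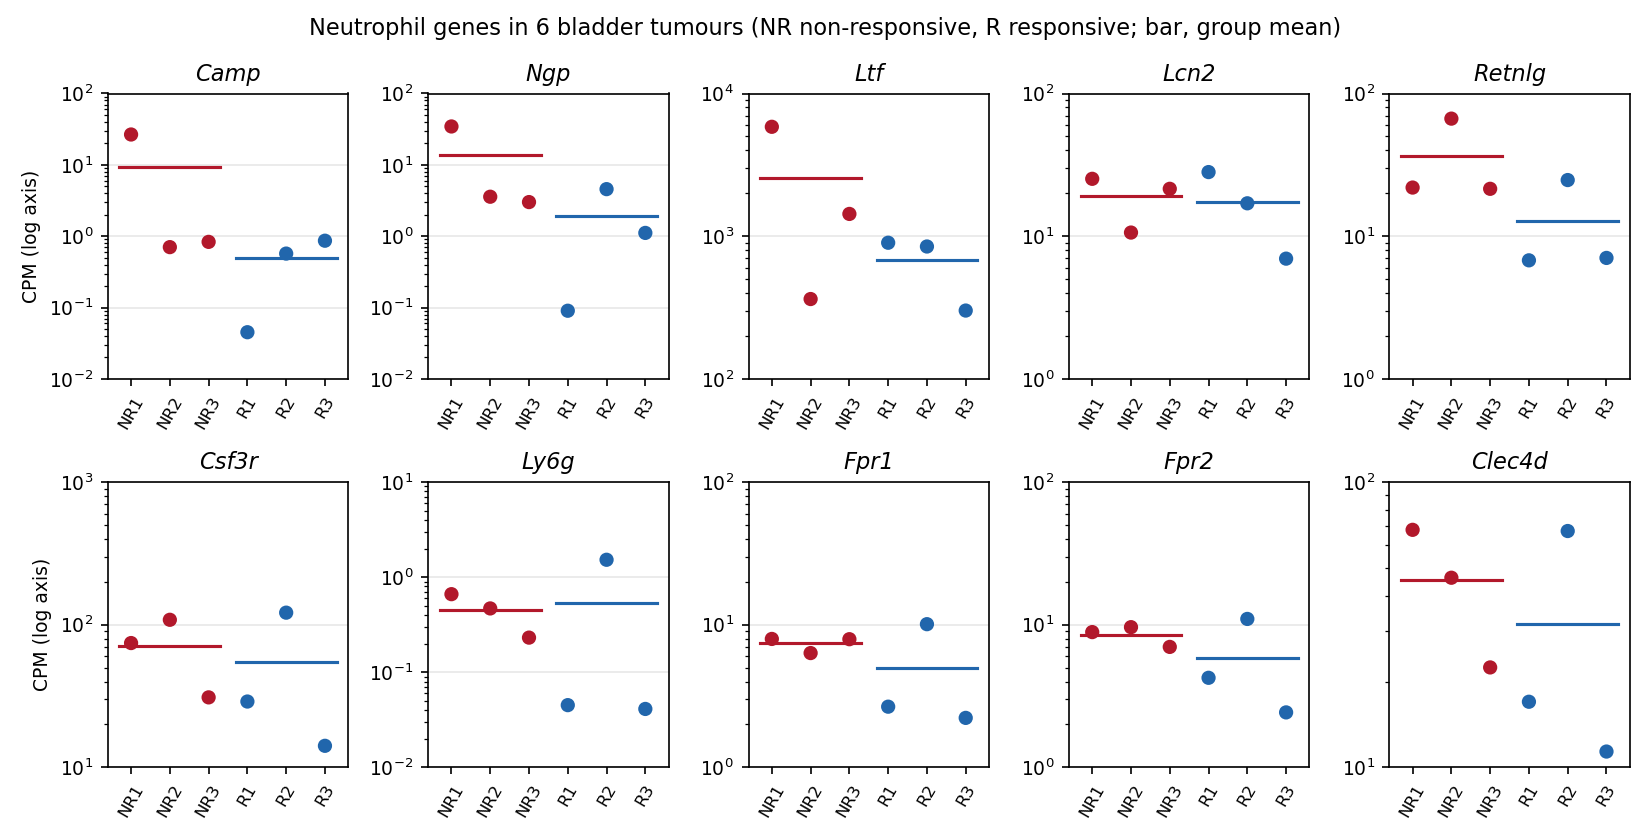
CPM on a log axis for each of the 10 genes in the 3 non-responsive tumours (red) and the 3 responsive tumours (blue), with a bar at the arithmetic mean of each group. NR1 stands above all others for Camp at 26.6, Ngp at 34.5 and Ltf at 5844 CPM, while R2 is highest for Csf3r, Ly6g, Fpr1 and Fpr2.

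Camp encodes the cathelicidin precursor, an antimicrobial peptide of secondary granules that is also a ligand of the Fpr2 receptor. Its level was 26.6, 0.704 and 0.834 CPM in NR1, NR2 and NR3, and 0.0452, 0.571 and 0.865 CPM in R1, R2 and R3. NR1 was 30.8-fold above the next tumour, R3, and the other 5 tumours overlapped. The log2 difference was 4.22 ± 1.65 (SE; unadjusted p = 0.0371, edgeR adjusted p = 0.379), and 0.63 without NR1. The R1 value rests on a count of 1, for which an exact Poisson interval at the 95% level is 0.00114 to 0.252 CPM. The NR1 value rests on 402 counts, with an interval of 24.1 to 29.4 CPM.

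Ngp encodes neutrophilic granule protein, a secondary granule protein related to the cathelicidins. Levels were 34.5, 3.58 and 3.01 CPM in NR1 to NR3 and 0.0904, 4.57 and 1.11 CPM in R1 to R3. NR1 was again highest and R1 lowest, while R2 lay above NR2 and NR3. The log2 difference was 2.85 ± 1.39 (edgeR adjusted p = 0.423), 0.79 without NR1 and 4.48 without R2. In R1 the count was 2, with an interval of 0.0109 to 0.327 CPM.

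Ltf encodes lactotransferrin, an iron-binding protein of secondary granules and of epithelial secretions. It was by far the most abundant member per length, with a mean FPKM of 802, against 43.6 for Retnlg, the next. The levels were 5844, 363 and 1433 CPM in NR1 to NR3 and 900, 847 and 302 CPM in R1 to R3. NR1 was highest and NR3 second, but NR2 lay below R1 and R2. In NR1, Ltf took 0.514% of all counts (Wilson 95% interval 0.511 to 0.517%) and ranked 11 among all genes, while in R3 it took 0.0306% and ranked 452. The log2 difference was 1.90 ± 0.95 (edgeR adjusted p = 0.430), 0.39 without NR1.

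Ltf kept a steadier proportion to Lcn2 than to Camp. The ratio of Ltf to Lcn2 FPKM was 113 in NR1 and 16.6 to 31.4 in the other tumours. The ratio of Ltf to Camp FPKM was 88.6, 207 and 670 in NR1 to NR3 and 9088, 517 and 142 in R1 to R3. R1 had the third highest Ltf level with Camp and Ngp at 1 and 2 counts. The ratio of Ngp to Camp FPKM ranged less, from 0.798 in R3 to 4.96 in R2. The genes nearest to Ltf in pattern were Alox12 and Skint3, with root mean square differences of 0.43 and 0.44 in centred log2 CPM over 6 tumours. Alox12, a lipoxygenase, was at 295 CPM in NR1 and 7.80 to 46.6 CPM in the other tumours. Krt5, the basal keratin, was also highest in NR1, at 8266 CPM against 1088 to 3036 CPM elsewhere, and its part in the Ltf level was not tested. Of the 25 secretory epithelium genes in the table, 5 were highest in NR1, of which Bpifb1 and Lpo, named after their values were seen, rest on 2 counts each. Of the 15 urothelium markers 5 were highest in NR1. Over all genes tested, 13.9% were highest in NR1. In R3, 8 of the secretory epithelium genes and 9 of the urothelium markers were highest. The urothelium markers Upk1a, Pparg and Gata3 were lowest in NR1. At an unadjusted p under 0.05 by edgeR, 4 of 20 secretory epithelium genes tested and 5 of 15 urothelium markers were lower in non-responsive tumours and 0 higher. Of all 14505 genes tested, 840 were lower and 985 higher at this level.

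Lcn2 encodes lipocalin 2, which withholds bacterial siderophores and is made by neutrophils and by stressed epithelium. Its levels of 25.2, 10.6 and 21.5 CPM in NR1 to NR3 and 28.2, 17.0 and 6.97 CPM in R1 to R3 interleaved between the groups. R1, nearly without Camp and Ngp, had the highest Lcn2. Its log2 difference of 0.14 ± 0.54 (edgeR adjusted p = 0.918) was the smallest of the members, and became -0.11 without NR1 and -0.24 without R3. The genes of nearest pattern were Insyn1 and Pgk1, a glycolytic enzyme, with root mean square differences of 0.17 and 0.20.

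Retnlg encodes resistin-like gamma, a secreted protein of mouse neutrophils and bone marrow. It was at 21.9, 66.7 and 21.5 CPM in NR1 to NR3 and at 6.78, 24.8 and 7.05 CPM in R1 to R3. NR2 was highest, 2.69-fold above R2, and R2 lay above NR1 and NR3. The log2 difference was 1.52 ± 0.67 (edgeR adjusted p = 0.401), 0.78 without NR2 and 2.40 without R2. Of the 7 eosinophil and basophil markers, 5 were also highest in NR2 and 2, Epx and Mcpt8, in NR1. In NR1 Epx rests on 14 counts and Mcpt8 on 2, a count that Mcpt8 also had in R3. Siglecf was at 29.9 CPM in NR2 and at 0.824 to 3.68 CPM elsewhere. Ccr3 was at 34.5 CPM in NR2 and at 1.52 to 5.97 CPM elsewhere. Epx, the eosinophil peroxidase, was at 0.928 CPM in NR1, 0.469 in NR2, 0.0926 in NR3 and at 0 in R1, R2 and R3. The 7 markers summed to 13.8, 93.0 and 12.0 CPM in NR1 to NR3 and 14.6, 14.7 and 4.25 CPM in R1 to R3. In this sum only NR2 stood above all responsive tumours. The mean of the 7 markers in centred log2 CPM was 0.387, 1.935 and -0.269 in NR1 to NR3. It was -0.302, -0.360 and -1.391 in R1 to R3, so by this measure all non-responsive tumours lay above, NR3 narrowly. At an unadjusted p under 0.05 by edgeR, 1 of the 5 markers tested was higher in non-responsive tumours and 0 lower. Of all genes tested, 6.79% were higher at this level. The part of these markers in the Retnlg level was not tested.

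Csf3r encodes the receptor for G-CSF, the growth factor that drives neutrophil production and survival. It was at 74.4, 108 and 31.0 CPM in NR1 to NR3 and 29.0, 121 and 14.2 CPM in R1 to R3. R2 was the highest tumour and R3 the lowest, so the responsive values enclosed the non-responsive ones. The log2 difference was 0.38 ± 0.80 (edgeR adjusted p = 0.840), -0.036 without NR2, 0.070 without R1, -0.078 without R3, 0.74 without NR3 and 1.72 without R2. Cxcr2, the chemokine receptor that guides neutrophils into tissue, had the nearest pattern (root mean square difference 0.27), at 46.9, 52.7 and 15.0 CPM in NR1 to NR3 and 13.1, 72.5 and 10.9 CPM in R1 to R3.

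Fpr1 and Fpr2 encode receptors for formylated bacterial and mitochondrial peptides. Fpr1 was at 7.95, 6.33 and 7.92 CPM in NR1 to NR3 and 2.67, 10.1 and 2.23 CPM in R1 to R3, a log2 difference of 0.57 ± 0.61 (edgeR adjusted p = 0.669). Fpr2 was at 8.88, 9.62 and 6.99 CPM in NR1 to NR3 and 4.25, 10.98 and 2.43 CPM in R1 to R3, a log2 difference of 0.53 ± 0.55 (edgeR adjusted p = 0.662). In both genes the 3 non-responsive tumours lay close together, between R2 above them and R1 and R3 below. Leaving out single responsive tumours moved the log2 differences both ways. For Fpr1 the value was 1.59 without R2 (edgeR adjusted p = 0.555), 0.27 without R1 and 0.23 without R3. For Fpr2 it was 1.35 without R2 (edgeR adjusted p = 0.557), 0.35 without R1 and 0.16 without R3. The pair was the closest in pattern among the members (root mean square difference 0.29), and the ratio of Fpr2 to Fpr1 FPKM was 1.13 to 2.13.

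Clec4d encodes a C-type lectin receptor of neutrophils and monocytes that binds fungal and mycobacterial ligands. It was at 68.0, 46.2 and 22.4 CPM in NR1 to NR3 and 17.0, 67.3 and 11.4 CPM in R1 to R3. NR1 and R2 were nearly level at the top. The log2 difference was 0.52 ± 0.71 (edgeR adjusted p = 0.746), 1.68 without R2, 0.10 without NR1, 0.21 without R1 and 0.12 without R3. Srgn, the granule proteoglycan serglycin, and Nlrp3, an inflammasome sensor, had the nearest patterns (0.21 and 0.22).

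Ly6g, the surface protein used as the defining marker of mouse neutrophils, was nearly absent as a transcript and did not pass the filter on low counts. Its counts were 10, 8 and 5 in NR1 to NR3 and 1, 24 and 1 in R1 to R3, or 0.663, 0.469 and 0.232 against 0.0452, 1.52 and 0.0412 CPM. R2 held the highest value and R1 and R3 the lowest, as for Csf3r, Fpr1 and Fpr2. The mean of log2 CPM was higher in non-responsive tumours by 0.69, but the mean CPM was lower (0.454 against 0.537), and without the filter edgeR gave -0.21 ± 1.33 (adjusted p = 0.954). Without R2, where Ly6g passed the filter, edgeR gave 3.21 ± 1.10 (adjusted p = 0.556), against -0.76 to 0.15 without each of the other tumours. The nearest pattern was that of Trem1, an activating receptor of neutrophils and monocytes, at 8.86 to 41.1 CPM outside R2 and 65.9 CPM in R2.

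Of the 6 tumours, leaving out R2 moved the log2 differences of Csf3r, Fpr1, Fpr2 and Clec4d the most. Without it 7 of the 10 members, namely Ngp, Retnlg, Csf3r, Ly6g, Fpr1, Fpr2 and Clec4d, had all non-responsive values above both responsive values, against 13.4% of all genes tested without R2. The median difference over the 10 members was then 1.60. Without R2 edgeR still called 0 members, with a smallest adjusted p of 0.555. At an unadjusted p under 0.05 it had 7 members higher, against 4.34% of all genes tested. DESeq2 without R2 called 3 as higher (Ngp, Retnlg and Fpr1), against 0.912% of genes with an adjusted p. Without NR2, Ltf alone was free of overlap, against 13.9% of all genes with higher values, and DESeq2 called Camp and Ltf, against 1.12%. Without NR3, 0 were free of overlap (12.9% of all genes), and DESeq2 called Camp, against 0.548%. Without R3, Camp alone was free of overlap, against 13.8% of all genes, and DESeq2 called 0 members, against 0.354%. Without NR1 or R1, 0 were free of overlap, against 22.8% and 14.6% of all genes, and DESeq2 called 0, against 6.72% and 1.27%. At an unadjusted edgeR p under 0.05, 2 members were higher without NR2 (4.88% of all genes) and 2 without NR3 (4.78%). There were 0 without NR1 (12.2%), R1 (5.16%) or R3 (3.68%).

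**Figure D2:**
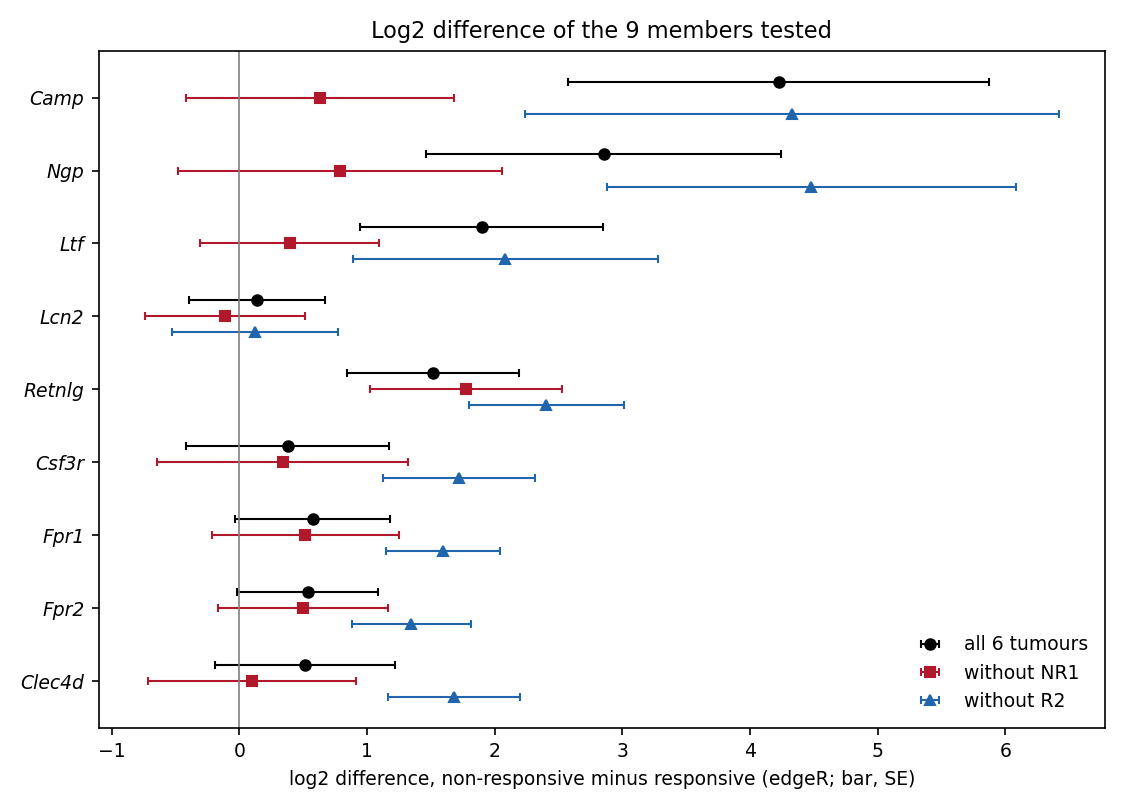
Log2 difference, non-responsive minus responsive, with its SE from edgeR for the 9 members tested, over all 6 tumours (black circles), without NR1 (red squares) and without R2 (blue triangles). Camp, Ngp and Ltf move from 4.22, 2.85 and 1.90 to 0.63, 0.79 and 0.39 without NR1, while Csf3r, Fpr1, Fpr2 and Clec4d move to 1.72, 1.59, 1.35 and 1.68 without R2.

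The leading tumour was not the same for Camp, Ngp and Ltf as for a set of receptor and surface genes. These sets were chosen after the values were seen, and the difference was not tested. The mean of Camp, Ngp and Ltf in centred log2 CPM was 3.62 in NR1, -0.48 in NR2, 0.17 in NR3, -2.27 in R1, -0.040 in R2 and -1.01 in R3. The mean of Csf3r, Fpr1, Fpr2, Clec4d and Ly6g was 0.73, 0.60 and -0.15 in NR1 to NR3 and -0.93, 1.21 and -1.46 in R1 to R3. NR1 led for the first set and R2 for the second, though Clec4d of the second was highest in NR1. Lcn2, a secondary granule gene in neither set, was highest in R1, at 28.2 CPM against 25.2 CPM in NR1. The mean over the 24 other receptor and surface genes was highest in NR2, at 0.98, against 0.48 in R2. Per length, the ratio of Csf3r to Ngp FPKM was 0.819 in NR1, 3.92 in NR3, 4.80 in R3, 10.1 in R2, 11.4 in NR2 and 121 in R1.

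Of the 4 primary granule genes, Mpo, Elane and Ctsg were close to the limit of detection in most tumours, and only Prtn3 was tested. Mpo, the myeloperoxidase, had 49 counts in NR1 (3.25 CPM) and 2 to 10 in the other 5 tumours. Elane, neutrophil elastase, had 19 counts in NR1, 14 in R1 and 0 to 3 elsewhere. Ctsg, cathepsin G, had 13 counts in NR1 and 0 to 3 elsewhere. NR1 was thus highest for Mpo, Elane and Ctsg as for Camp, Ngp and Ltf. For Elane the exact Poisson intervals of NR1 and R1 overlapped, at 0.758 to 1.97 and 0.346 to 1.06 CPM. Prtn3, proteinase 3, was instead highest in R1 at 4.43 CPM, with 3.98 CPM in NR1 and a log2 difference of -0.19 ± 0.89 (edgeR adjusted p = 0.932).

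**Figure D3:**
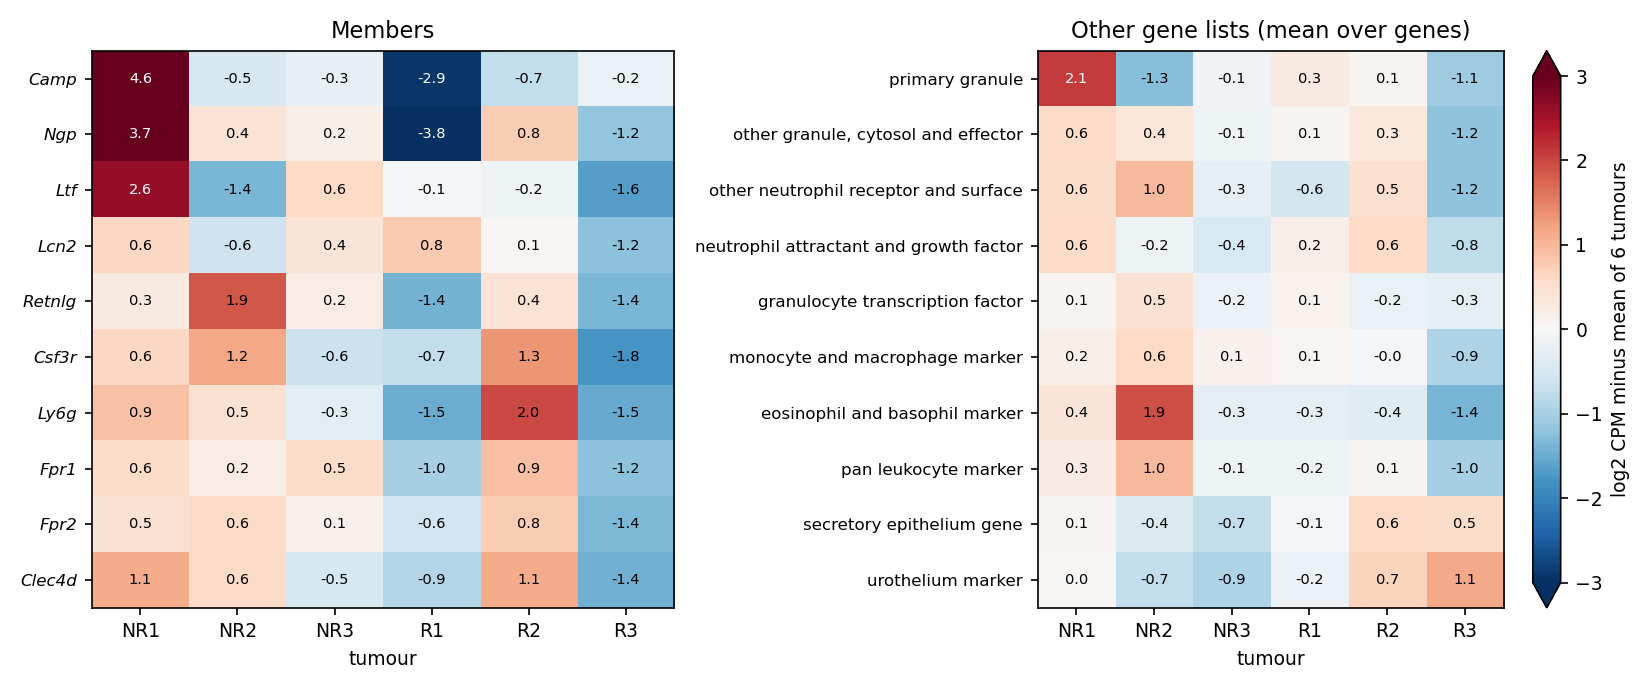
Centred log2 CPM (the value minus the gene's mean over 6 tumours) for the members (left) and the mean of the same over each other gene list (right), by tumour, with colours capped at 3 and the values printed. NR1 leads for Camp, Ngp, Ltf and the primary granule list, R2 for Csf3r, Ly6g, Fpr1 and Fpr2, and NR2 for Retnlg and the eosinophil and basophil list.

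Among 18 other granule, cytosol and effector genes found in the table, 0 passed edgeR, and at an unadjusted p under 0.05 there were 2 higher and 1 lower. Over all 14505 genes tested, 985 were higher and 840 lower at this level. Their median difference was 0.45, with 13 above 0, as were 49.8% of all genes tested. The calprotectin subunits S100a8 and S100a9 had their 2 highest values in NR1 and R2. S100a8 was at 190, 82.0 and 30.9 CPM in NR1 to NR3 and 45.6, 94.6 and 13.3 CPM in R1 to R3. S100a9 was at 417 CPM in NR1, 275 CPM in R2 and 37.7 to 223 CPM elsewhere. Chil3, a chitinase-like protein of neutrophils and macrophages, was at 30.5, 62.0 and 73.9 CPM against 7.23, 13.5 and 4.25 CPM without overlap, a log2 difference of 2.74 ± 0.51 (unadjusted p = 0.00102, edgeR adjusted p = 0.350). Padi4, which citrullinates histones, lay the other way, at 41.1, 32.5 and 50.9 against 53.5, 92.3 and 109 CPM (-1.04 ± 0.31, edgeR adjusted p = 0.358). Cybb, the catalytic subunit of the phagocyte oxidase, was the other gene higher at an unadjusted p under 0.05 (1.62 ± 0.45, edgeR adjusted p = 0.350). Chil3, Cybb and Padi4 were named after their values were seen. Anxa1 and Lyz2, also the most abundant of the list, had log2 differences of 0.31 and 0.29.

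Of 24 other receptor and surface genes, all in the table, 0 passed edgeR and 22 were tested. All 24 had a higher mean log2 CPM in non-responsive tumours, against 49.8% of all genes tested, with a median of 0.71. Of them 3 (Itgb2, Fcgr4 and Ltb4r1, the last named after its values were seen) were free of overlap and had an unadjusted p under 0.05. Of all genes tested, 17.7% were free of overlap in either direction and 6.79% were higher at this p by edgeR. Fcgr4, an activating Fc receptor, was at 43.4, 56.2 and 51.3 CPM against 25.2, 28.4 and 13.2 CPM (1.18 ± 0.31, edgeR adjusted p = 0.350). Itgb2, the shared chain of the leukocyte integrins, differed by 1.20 ± 0.47 (edgeR adjusted p = 0.375). In this list 16 genes were highest in NR2, 5 in R2 and 3 in NR1. The pan-leukocyte genes were highest in NR2 as well, 5 of 5, and summed to 500 to 1026 CPM in non-responsive and 262 to 544 CPM in responsive tumours. At an unadjusted p under 0.05 by edgeR, 2 of the 5 were higher in non-responsive tumours and 0 lower, with 6.79% of all genes tested higher. The part of these 5 genes in the receptor levels was not tested.

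None of 12 monocyte and macrophage markers was highest in R2, but not all were low there. The markers summed to 2434, 3765 and 3498 CPM in NR1 to NR3 and 3376, 2506 and 1508 CPM in R1 to R3, with 8 of 12 highest in NR2, 2 in NR1 and none at 0 in any tumour. Their median difference was 0.49, and 0 passed edgeR. At an unadjusted p under 0.05, 2 of the 12 were higher in non-responsive tumours and 0 lower, with 6.79% of all genes tested higher at this level. Plac8, also expressed in other myeloid cells, had its 2 highest values in NR1 and R2, as Clec4d did, at 320 and 314 CPM against 139 to 194 CPM elsewhere. Cd68, a lysosomal glycoprotein, was at 91.5 CPM in R2, against 69.6 CPM in R1 and 40.2 CPM in R3. Csf1r, the macrophage growth factor receptor, was at 112 CPM in R2 against 133 CPM in R1, whereas Csf3r was at 121 CPM in R2 against 29.0 CPM in R1. Ly6c2, of inflammatory monocytes, was highest in NR1 and NR2, at 68.1 and 57.4 CPM, and at 5.44 to 14.0 CPM in the other tumours. Cd68, Csf1r and Ly6c2 were named after their values were seen.

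Genes that recruit neutrophils or raise their output had a median difference of 0.046 over 18 in the table, and 0 passed edgeR. The CXCR2 ligands Cxcl2, Cxcl3, Cxcl5 and Ppbp had their 2 highest values in NR1 and R2, while Cxcl1, another ligand, was highest in R1 at 9.45 CPM. Cxcl2 was at 89.3 CPM in NR1 and 90.0 CPM in R2, against 11.7 to 38.7 CPM in the other tumours. Cxcl3 was at 118 and 102 CPM in those tumours, against 11.9 to 57.5 CPM elsewhere. Cxcl5 was at 191 and 154 CPM, against 35.1 to 57.7 CPM, and Ppbp at 1362 and 1261 CPM, against 207 to 562 CPM. Il1b, an inflammatory cytokine, was highest in R2 at 389 CPM, with 235 CPM in NR1 and 44.6 to 119 CPM elsewhere. Csf3, encoding G-CSF, was low throughout, at 0.645 to 3.49 CPM. Saa3, an acute-phase protein, was at 63.2, 9.62 and 82.6 CPM in NR1 to NR3 and 10.3 to 15.5 CPM in the responsive tumours (1.97 ± 0.69, edgeR adjusted p = 0.364). Cxcl15, a chemokine of the same class as the CXCR2 ligands, lay the other way, at 0.464, 5.51 and 0.371 CPM in NR1 to NR3 and 8.63, 9.77 and 28.2 CPM in R1 to R3 without overlap (-2.88 ± 1.08, edgeR adjusted p = 0.372). Saa3 and Cxcl15 were the genes of the list with an unadjusted p under 0.05 by edgeR, of 15 tested. Over all 14505 genes tested, 985 were higher and 840 lower at this level. C3, the central complement component, was at 4236, 1027 and 463 CPM in NR1 to NR3 and 3638 to 4611 CPM in the responsive tumours (-1.10 ± 0.76, edgeR adjusted p = 0.527). Cxcl15, Cxcl1, Cxcl2, Cxcl3, Cxcl5 and Csf3 were named after their values were seen.

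Of 9 granulocyte transcription factors, 0 passed edgeR. Cebpe, which drives secondary granule genes, was at 7.27 CPM in NR2 and 0.330 to 1.66 CPM elsewhere, so it was not highest in NR1, where Camp, Ngp and Ltf were. Cebpe was named after its values were seen, and is also active in eosinophils. Of the 7 listed eosinophil and basophil markers, 5 were highest in NR2 and 2 in NR1, Epx on 14 counts and Mcpt8 on 2. Runx1, also named after its values were seen, was the factor with an unadjusted p under 0.05 (0.47 ± 0.20, edgeR adjusted p = 0.392), without overlap. Of all genes tested, 6.79% were higher at this level and 17.7% were without overlap in either direction. Cebpb and Spi1, which encodes PU.1, differed by -0.011 and 0.31 with edgeR adjusted p = 0.985 and 0.686.

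The high Camp, Ngp and Ltf of NR1 was not shared by most of the genes that lie between them on chromosome 9. Of the 20 other genes tested there, 2 were highest in NR1 (10%, against 13.9% of all genes tested), and their median centred value in NR1 was 0.052. Lrrc2, named after its values were seen, was one of them, at 10.8 CPM in NR1 and 0.588 to 3.94 CPM elsewhere. Angptl7 and Igf2 were the genes of nearest pattern to Camp, with root mean square differences of 0.75 and 0.95. Igf2, a growth factor, was at 240 CPM in NR1 and 9.62 to 38.6 CPM elsewhere.

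**Figure D4:**
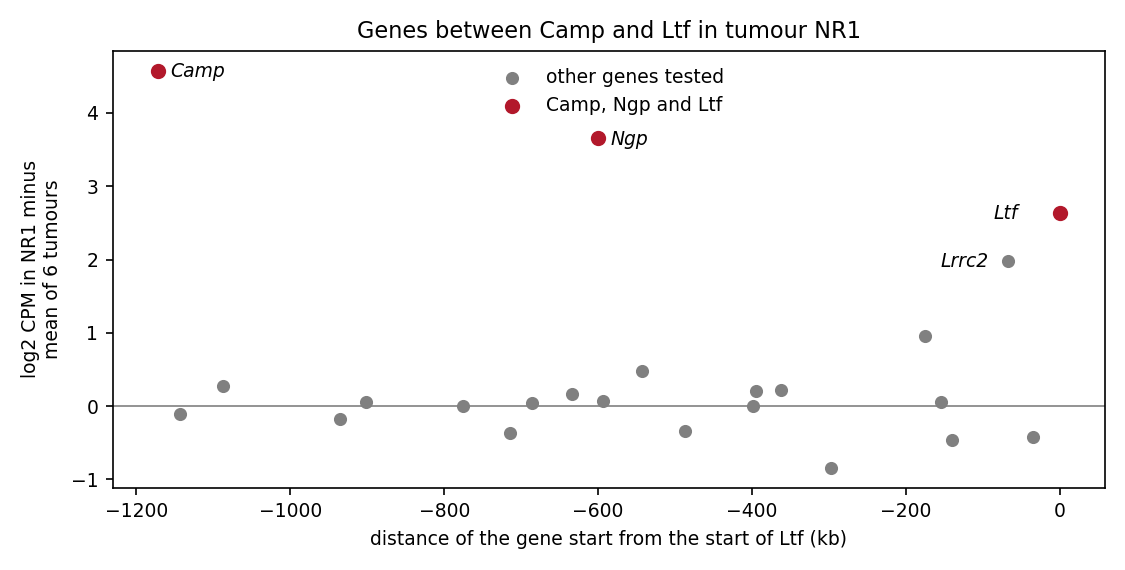
Centred log2 CPM in NR1 for each of the 23 genes tested between Camp and Ltf, against the distance of the gene's start from the start of Ltf in kb. Camp, Ngp and Ltf stand at 4.58, 3.65 and 2.63, and the 20 other genes (grey) have a median of 0.052, with Lrrc2 at 1.99.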

How the data were processed

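Per the labels' protocols, TRIZOL was used for total RNA of the 6 tumours and the Illumina TruSeq RNA kit for the libraries. The genome build was mm10, per the submitters' processing notes. The aligner, the counter, the annotation and strand use are not named in these sources. The authors deposited 1 table with estimated counts (expected counts) and FPKM values per gene and tumour, per the file headers. The estimated counts are not normalised between tumours, and were rounded here to whole numbers. The FPKM values were used to compare levels between genes and in alternatives.

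The test for each gene was that of edgeR 4.0.16 under R 4.3.3 (TMM, default expression filter, robust quasi-likelihood test, two-sided, Benjamini-Hochberg over all 14505 genes tested, threshold 5%). CPM values are TMM-normalised, and log2 CPM has a prior count of 2. The members, gene lists and tests were chosen with earlier results of these data known. The member results are descriptions where no adjusted p is given. Named are all 10 members, up to 4 genes of highest mean FPKM from a list, and the 2 genes of most similar pattern for a member (root mean square difference of centred log2 CPM over 6 tumours, gene models and antigen receptor segments left out). Ptprc, Epx and other genes outside this rule were named after their values were seen. The listed symbols BC100530 and C5 had no row in the table. Alternatives were DESeq2 1.42.0 and its size factors, other filters, limma 3.58.1 on log2(FPKM + 1) or log2(FPKM + 0.1), a block for the replicate number, and each tumour left out in turn. DESeq2 without each tumour was chosen after seeing the data. So were the split of the members into Camp, Ngp and Ltf against Csf3r, Fpr1, Fpr2, Clec4d and Ly6g (Lcn2 and Retnlg in neither), the comparison with the genes between Camp and Ltf, and the shares of all genes called or without overlap when a tumour is left out. Motifs were first searched in the whole RefSeq window, a TATA motif among them, before the search was narrowed to the bases upstream of the start and TATA was dropped. The same member genes held the C/EBP-type and PU.1-type motifs in both windows. Coordinates are from GENCODE M21 and upstream sequences from RefSeq (GRCm38.p6), both of the same build as mm10, counted from 1.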

Additional observations from a re-analysis of the deposited data

How the results depend on the processing

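Over the 9 members tested, 166 of 169 results under the alternatives had an adjusted p: 152 kept their direction and side of the threshold, 6 passed it and 8 changed direction. The other 3, without an adjusted p, were Camp and Ngp by DESeq2 and Camp by DESeq2 without NR1. The 6 that passed were all DESeq2 fits without 1 tumour. The changes of direction were for Lcn2 (without single tumours -0.24 to 0.68 by edgeR, with DESeq2 values of -0.12 without NR1 and -0.26 without R3) and Csf3r (-0.078 to 1.72 by edgeR, with DESeq2 values of -0.046 without NR2 and -0.089 without R3). Genes past the threshold numbered 0 by edgeR under each filter, scaling and left-out tumour and by limma, against 444 by DESeq2 and, by DESeq2 without 1 tumour, 1985 (NR1), 418 (NR2), 163 (NR3), 435 (R1), 286 (R2) and 191 (R3). Members past the threshold numbered 0 by edgeR in the same settings and by DESeq2, which called 2 without NR2, 1 without NR3, 3 without R2 and 0 without the others. The number of members without overlap was 0 over all tumours and 0 to 7 without single tumours. The median difference of the members, 0.85 over all tumours, was 0.39 (without R3) to 1.60 (without R2). The cause of these differences between settings was not tested.

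The labels number the tumours 1 to 3 in both groups and do not say whether the numbers pair them. Deviations of same-numbered tumours from their group means correlated at -0.11, -0.087 and -0.024 over genes. With 3 tumours per group these correlations cannot decide whether the tumours are paired. With the replicate number as a replicate block, 0 genes and 0 members passed, and the median of the members was 0.85. Retnlg was then at 1.575 ± 0.203 (edgeR unadjusted p = 0.000583, adjusted p = 0.414) and Csf3r at 0.778 ± 0.354, with smaller SEs than without the block. Camp at 1.97 ± 2.03, Ngp at 2.21 ± 1.85, Ltf at 1.38 ± 0.99 and Fpr1 at 0.94 ± 0.64 had larger SEs. The stricter filter left 7 members, and Camp, Ngp and Ly6g were not tested there. At the depth of these libraries, Ly6g, Elane and Ctsg and the lowest values of Camp and Ngp lie near the limit of detection.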
